A study of Mus musculus with 12 samples.

Results

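The cytosolic ribosomal protein genes were followed in developing mouse skeletal muscle. They were chosen by name: the protein-coding genes whose symbol begins with Rpl or Rps and a digit, together with *Rpsa*, *Rplp0*, *Rplp1* and *Rplp2*, without the ribosomal S6 kinases, *Rps19bp1* and symbols of pseudogenes. The rule found 89 genes among the 55450 rows of the count table. Of these, 77 encode the core proteins of the ribosome (31 of the small subunit, 43 of the large subunit and 3 of the stalk), and 12 are paralogues or retrotransposed copies. RNA had been sequenced from pieces of the tibialis anterior, a fast muscle of the lower hindlimb, of wild-type (WT) mice on the 129Pas background (the labels' spelling, given as 129SvPas in the paper). There were 4 libraries at each of 3 ages, which were E18.5 (embryonic, shortly before birth), 2 weeks and 7 weeks. No animal carried a mutant allele or received a treatment. The labels do not tie the libraries to separate animals (the study counts them as mice), so the p-values below measure the spread between these libraries.

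Each cytosolic ribosome joins a small subunit, which decodes the messenger RNA, to a large subunit, which forms the peptide bond. Nearly every ribosomal protein is present once per ribosome, and the proteins P1 and P2 of the stalk are the known exception. Messenger RNAs of ribosomal proteins usually begin with a terminal oligopyrimidine (TOP) tract, through which mTORC1 and LARP1 control their translation. Muscle fibres need ribosomes for growth after birth, and striated muscle also expresses *Rpl3l*, a paralogue that can take the place of the ubiquitous *Rpl3* near the peptidyl transferase centre.

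Library totals ran from 63018968 to 123449246 counts. Expression is given in CPM, the counts of a gene relative to the library's scaled total, after TMM scaling, which sets libraries side by side on the assumption that most genes do not change. The scaling factors were 1.62 to 1.77 at E18.5, 0.811 to 0.946 at 2 weeks and 0.667 to 0.699 at 7 weeks, so the 3 ages were scaled far apart and values without this scaling stand beside the main counts. Markers of muscle fibres (7 of 7 tested, summed level) rose from 12146 to 21568 CPM at E18.5 to 111664 to 141038 CPM at 2 weeks, and were 117331 to 162345 CPM at 7 weeks. Markers of dividing cells went from 511 to 762 CPM at E18.5 to 120 to 230 CPM and then to 27.3 to 39.5 CPM, with all 8 genes lower at each step. Markers of fibroblasts were at 7922 to 14763, 4617 to 6367 and 1002 to 4165 CPM, those of red blood cells at 242 to 1026, 146 to 756 and 91.9 to 129.7 CPM, and those of leukocytes at 89.4 to 138.4, 64.3 to 85.4 and 34.2 to 83.0 CPM. Markers of cartilage and bone (25.1 to 144.6, 4.64 to 23.7 and 1.81 to 3.73 CPM) and of epidermis (6.46 to 54.7, 10.5 to 13.4 and 9.86 to 18.7 CPM) were low, with Matn1 at 0 in every library of 2 and 7 weeks and Dsg3 at 0 in every library of 2 weeks. These marker levels differed between the ages compared below and between libraries of one age. Replicate 2 of E18.5 had the highest sums of its age for muscle fibres (21568 CPM), fibroblasts (14763), cartilage and bone (144.6) and epidermis (54.7). Replicate 1 of 7 weeks had them for fibroblasts (4165), leukocytes (83.0), red blood cells (129.7) and dividing cells (39.5), and the lowest for muscle fibres (117331). The part of marker levels in the results was not tested, and in bulk tissue fewer cells of a type and less RNA per cell cannot be told apart.

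Before the levels, the sequence around the annotated starts of the members is described. RefSeq promoter windows of the GRCm38.p6 build were matched by symbol for 66 of the 89 members, and the 30 bases from 10 before to 20 after each start were searched on the sense strand for a C followed by at least 4 further C or T. Such a tract was found in 45 of 66 members (68.2%) and in 39.6% of all 27025 genes of the table. It was counted anywhere in these 30 bases, so it need not begin at the start as a TOP tract does. A gene with several starts was counted if any of them held a tract. A tract of 8 or more bases was found in 25 members (37.9%) and in 10.1% of all genes. Among 57 core genes, 37 held a tract and 23 held a long one, and of the 9 paralogues or copies with an entry 8 held a tract and 2 a long one. The windows below are those of *Rps6*, the substrate of S6 kinase, of *Rplp2* and *Rps2* among the core genes that rose to 2 weeks, of *Rps4x* among those that fell, and of *Rps27* beside its paralogue *Rps27l* and of Rpl3l. The tract is in capitals, and in *Rps4x* these letters were not found in the window.
Rps6 (chr4:86857348-86857377, minus strand): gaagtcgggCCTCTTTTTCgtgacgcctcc
Rplp2 (chr7:141447641-141447670, plus strand): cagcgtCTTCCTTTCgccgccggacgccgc
Rps2 (chr17:24720053-24720082, plus strand): gtcgagatctcgcgCTTCTTggagcactat
Rps4x (chrX:102189372-102189401, minus strand): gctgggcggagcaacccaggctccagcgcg
Rps27 (chr3:90213629-90213658, minus strand): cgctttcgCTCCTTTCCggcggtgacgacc
Rps27l (chr9:66946076-66946105, plus strand): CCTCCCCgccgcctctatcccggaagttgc
Rpl3l (chr17:24727816-24727845, plus strand): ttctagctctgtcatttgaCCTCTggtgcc

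For *Rps27l* and *Rpl3l* the first of 2 RefSeq starts is shown, and the window of the other start held no tract in either gene. No RefSeq window was matched for *Rpl3*, *Rpl7*, *Rpl36*, *Rplp1* or Rps29. The 23 core genes with a long tract and the 34 without one had nearly equal median log2 fold changes from E18.5 to 2 weeks, 0.24 and 0.25.

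The mean summed level of the 77 core genes differed between ages by less than the range within any one age. At E18.5 the sum was 14118, 18848, 16843 and 14667 CPM, with a mean of 16119 ± 2167 CPM (SD, n = 4). At 2 weeks it was 19178, 18953, 15397 and 16805 CPM (17583 ± 1808), and at 7 weeks 11319, 13845, 20566 and 16421 CPM (15538 ± 3947). The 3 ages overlapped, and the lowest and the highest of all 12 libraries were both from 7 weeks. As a share of all gene counts, without TMM scaling, the core genes took 2.29%, 3.11%, 2.98% and 2.38% at E18.5, 1.81%, 1.75%, 1.27% and 1.36% at 2 weeks, and 0.791%, 0.957%, 1.37% and 1.14% at 7 weeks. On this scale every E18.5 library lay above every older one, while the ranges of 2 and 7 weeks overlapped.

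**Figure D1:**
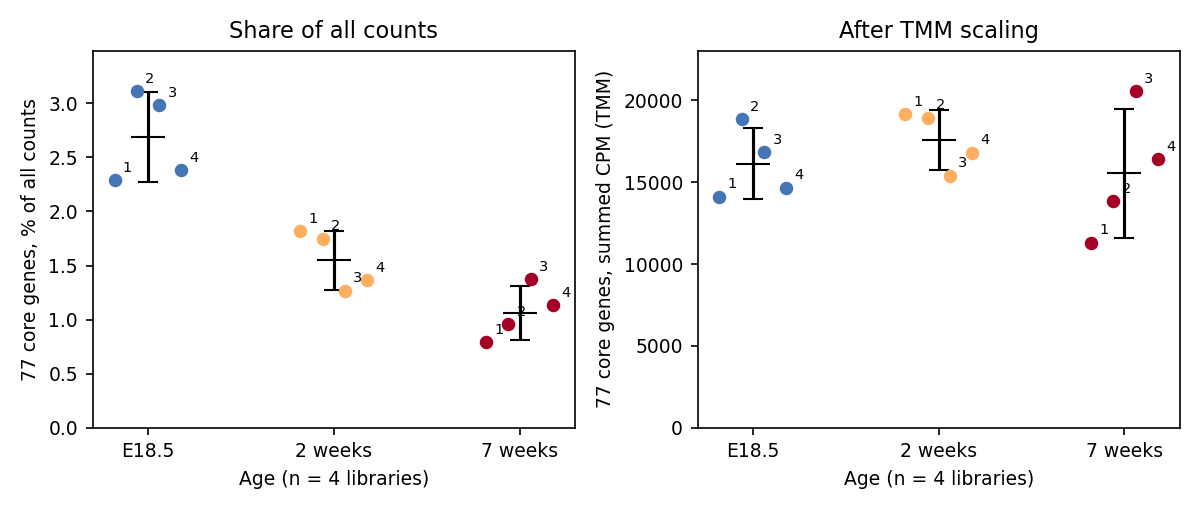
The plot of the summed core level shows, for each of the 12 libraries, the level of the 77 core ribosomal protein genes by age, as CPM after TMM scaling and as a percentage of all gene counts (numbered points are libraries, bars the mean and SD of 4). The CPM sums overlap between ages, from 11319 to 20566 CPM at 7 weeks alone, whereas the percentages fall from 2.29 to 3.11% at E18.5 to 0.791 to 1.37% at 7 weeks.

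Libraries of one age differed in a shared direction. Replicate 1 of 7 weeks was the lowest of its age for 74 of the 77 core genes and replicate 3 the highest for 74. At E18.5, replicate 1 was the lowest for 49 genes and replicate 2 the highest for 56, and at 2 weeks replicate 3 was the lowest for 64. Replicate 1 of 7 weeks and replicate 2 of E18.5 also had several of the highest marker sums of their ages, as given above. The ratio of the highest to the lowest library had a median of 1.70, 1.32 and 1.94 over the core genes at the 3 ages, against 1.60, 1.26 and 1.44 over the 8793 tested genes with a mean of at least 10 CPM. Results are therefore also given without replicate 1 of E18.5 and replicate 1 of 7 weeks, a choice made after seeing the data.

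Between E18.5 and 2 weeks the core genes changed in both directions. Of 86 members that passed the filter on low counts, 31 rose and 19 fell (edgeR's quasi-likelihood test, adjusted p under 0.05), while 31.5% of all 19276 genes tested rose and 34.2% fell. The median log2 fold change was 0.25 over the members and -0.09 over all genes. The small subunit had 13 genes higher and 6 lower of 31 (median 0.35), the large subunit 13 and 10 of 43 (0.24), the stalk 3 and 0 of 3 (2.19), and the paralogues and copies 2 and 3 of 9. Without the lowest libraries of E18.5 and 7 weeks, 28 members were higher and 19 lower.

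The split between rises and falls depended on the scaling. With libraries scaled to their total counts, the median of all genes moved by -0.93 to -1.02, that of the members to -0.66, and 7 members were higher and 44 lower. Relative to the median gene the members stood 0.34 higher with TMM scaling and 0.36 higher with total counts. After removal of the trend of fold change with transcript length, in contrast, the members' median was -0.38 and 12 were higher and 43 lower, and relative to the median gene it was -0.05. The direction of the family median thus differed between these settings. The shares of all genes called, given above, are those with TMM scaling and were not set beside the counts of these settings.

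The largest rises among the core genes included the stalk, the protrusion of the large subunit to which the elongation factors bind. *Rplp0*, its scaffold protein, was at 94.8, 236, 141 and 120.3 CPM at E18.5, 393, 384, 359.6 and 373 CPM at 2 weeks and 193, 261, 436 and 332 CPM at 7 weeks. Its level at 2 weeks lay above every E18.5 library (log2 fold change 1.35 ± 0.28, adjusted p = 0.000744), and the call was lost with total counts. *Rplp1*, which encodes the acidic protein P1, was at 15.0, 100.3, 42.5 and 36.2 CPM at E18.5, 355, 319, 316 and 441 CPM at 2 weeks and 87.5, 154, 378 and 296 CPM at 7 weeks. All libraries of 2 weeks lay above all of E18.5 (2.88 ± 0.52, adjusted p = 0.00027), and within E18.5 the libraries themselves spanned 15.0 to 100.3 CPM. *Rplp2*, which encodes the partner protein P2, was at 12.8, 50.9, 28.2 and 25.1 CPM at E18.5, 137, 121, 102 and 173 CPM at 2 weeks and 32.8, 59.1, 148 and 103 CPM at 7 weeks. As for *Rplp1*, replicate 1 was the lowest and replicate 2 the highest at E18.5, and *Rplp2* was higher at 2 weeks (2.19 ± 0.44, adjusted p = 0.000645). From 2 to 7 weeks the stalk genes did not pass the test, with log2 fold changes of -0.31 ± 0.27, adjusted p = 0.434 for *Rplp0*, -0.64 ± 0.49, adjusted p = 0.348 for *Rplp1* and -0.64 ± 0.43, adjusted p = 0.286 for Rplp2.

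*Rpl36*, a small protein of the large subunit, had the largest rise of any core gene from E18.5 to 2 weeks. It was at 2.76, 25.5, 10.03 and 9.52 CPM at E18.5, 130.1, 98.8, 88.1 and 162 CPM at 2 weeks and 15.7, 35.6, 100.3 and 77.8 CPM at 7 weeks. The 2-week libraries lay above all of E18.5 (3.32 ± 0.62, adjusted p = 0.000354), and at 7 weeks replicate 1 was at the level of E18.5 while replicate 3 was at that of 2 weeks. Of the bases of *Rpl36*, 10.04% overlap Lonp1 on the opposite strand, and 49.1% of its stretches of 100 bases also occur in other genes.

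**Figure D2:**
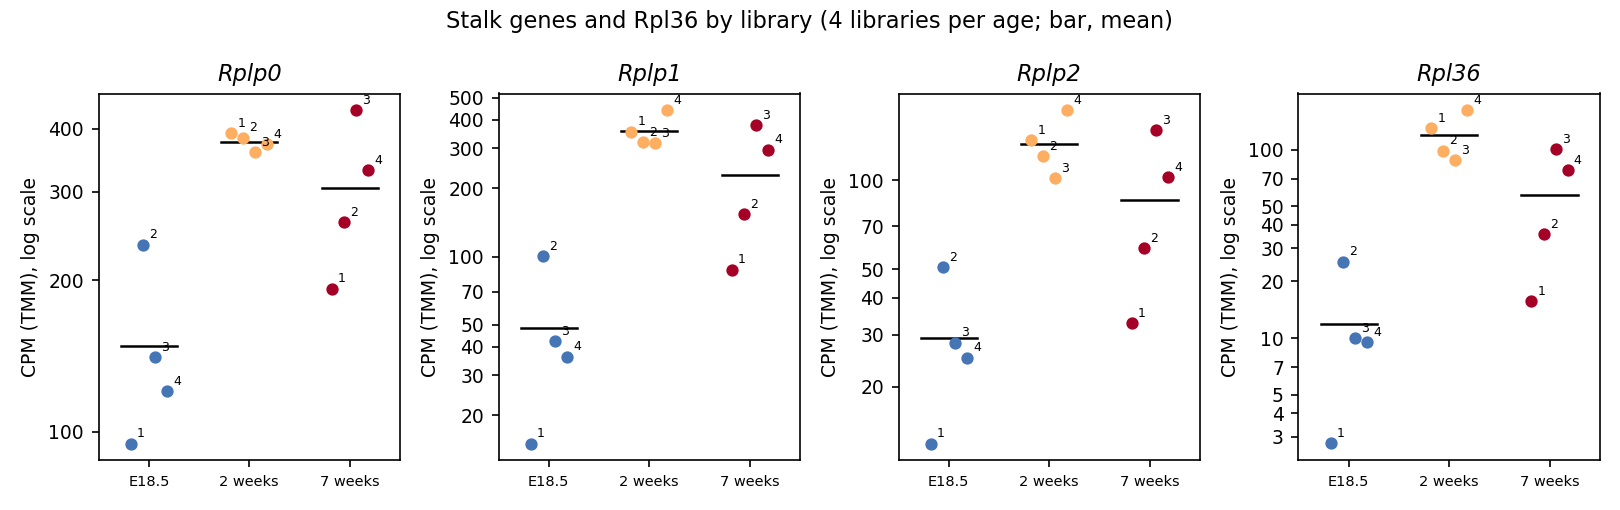
The plot of the stalk genes and *Rpl36* gives the level in CPM (log axis) of *Rplp0*, *Rplp1*, *Rplp2* and *Rpl36* in each of the 12 libraries, by age. Every 2-week library lies above every E18.5 library for all 4 genes, and the 7-week libraries spread over a wider range, from 15.7 to 100.3 CPM for Rpl36.

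In the small subunit, *Rps29*, *Rps21* and *Rps2* rose most. *Rps29*, a zinc-binding protein, was at 27.9, 129.9, 62.4 and 58.2 CPM at E18.5, 279.5, 272, 217 and 308 CPM at 2 weeks and 79.2, 134, 233 and 189.8 CPM at 7 weeks. Its E18.5 and 2-week libraries did not overlap (1.95 ± 0.40, adjusted p = 0.000696). *Rps2*, which lies at the entry of the mRNA channel, was at 97.6, 201, 147 and 129 CPM at E18.5, 525, 525, 457 and 465 CPM at 2 weeks and 290.4, 400.4, 629 and 444 CPM at 7 weeks. Here the 2-week level exceeded that of E18.5 in every library (1.78 ± 0.25, adjusted p = 3.1e-05). *Rps21* followed the same course, from 18.6, 55.7, 27.9 and 23.2 CPM to 119, 112, 97.3 and 137 CPM (1.89 ± 0.37, adjusted p = 0.000468). *Rps28* rose as well (1.23 ± 0.35, adjusted p = 0.00698), and so did *Rpsa*, the ribosomal protein also known as the laminin receptor (0.46 ± 0.19, adjusted p = 0.0474), although *Rpsa* kept its call in only 4 of 25 other settings and lost it with DESeq2. The call on *Rps28* was lost with total counts and with the length trend removed. *Rps6* did not pass the test (-0.15 ± 0.19, adjusted p = 0.506) and neither did *Rps3* (-0.15 ± 0.19, adjusted p = 0.487) or *Rps19*, a gene mutated in Diamond-Blackfan anaemia (-0.23 ± 0.24, adjusted p = 0.396).

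*Rps4x*, the X-linked gene of a small-subunit protein, had the largest fall among small-subunit genes. *Rps4x* was at 1037, 809, 922 and 794 CPM at E18.5, 470.0, 491, 366 and 329 CPM at 2 weeks and 370.0, 389, 492 and 399 CPM at 7 weeks. Every 2-week library lay below every E18.5 library (-1.10 ± 0.18, adjusted p = 0.000103), and the libraries of 2 and 7 weeks overlapped (-0.01 ± 0.18, adjusted p = 0.984). *Rps3a1* was at 203, 212, 233 and 191 CPM at E18.5, 118, 122, 102 and 113 CPM at 2 weeks and 108, 114, 125 and 118 CPM at 7 weeks. It fell with little spread within an age (-0.88 ± 0.13, adjusted p = 3.69e-05). *Rps24* (-0.76 ± 0.19, adjusted p = 0.00246) and *Rps27a*, which encodes a fusion of ubiquitin with a ribosomal protein (-0.69 ± 0.17, adjusted p = 0.0023), were also lower at 2 weeks.

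The large subunit held falls beside *Rpl3*, which is described with its paralogue below. *Rpl7* was at 914, 724, 905 and 784 CPM at E18.5, 501, 506, 411 and 374 CPM at 2 weeks and 462, 479.6, 586 and 490.0 CPM at 7 weeks, with no overlap between E18.5 and the later ages (-0.89 ± 0.16, adjusted p = 0.000276). *Rpl5*, which binds the smallest ribosomal RNA of the large subunit and can restrain Mdm2, fell (-0.82 ± 0.15, adjusted p = 0.000358), whereas *Rpl11*, its partner in that complex, was higher in value without passing the test (0.52 ± 0.23, adjusted p = 0.0554). The call on *Rpl5* was lost when the trend with GC content, of the transcript or of the coding sequence, was removed. Of its stretches of 100 bases, 87.1% also occur in other genes. *Rpl8* (1.13 ± 0.34, adjusted p = 0.0093) and *Rpl41* (1.10 ± 0.35, adjusted p = 0.013) rose, as did *Rpl38*, known for its role in axial patterning (0.65 ± 0.25, adjusted p = 0.0316), and *Rpl35* (0.67 ± 0.27, adjusted p = 0.0451). All 4 lost the call with total counts, and *Rpl38* kept it in 14 and *Rpl35* in 6 of 25 other settings, with *Rpl35* also lost with DESeq2. *Rpl4*, among the most abundant members, was at 809 ± 126, 672 ± 53.8 and 862 ± 129 CPM (mean ± SD, n = 4 each) and did not pass the test at either step. *Rpl24* fell (-1.10 ± 0.40, adjusted p = 0.0246), but it had only 100, 74, 72 and 64 counts at E18.5 and 11, 29, 17 and 8 at 2 weeks. The call on *Rpl24* was lost without replicate 1 of E18.5, replicate 1 of 2 weeks or replicate 4 of 2 weeks.

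Over 25 other settings, which included leaving out each library in turn, other scalings and the removal of trends with length and GC content, 7 of the 31 rises kept their call in all: *Rpl3l*, *Rplp1*, *Rplp2*, *Rps29*, *Rps21*, *Rps2* and Rpl36. Of the 19 falls, 7 kept it in all settings that could be fitted, which for *Rpl39l* were 24: *Rps3a1*, *Rps4x*, *Rpl39l*, *Rpl7*, *Rps27rt*, *Rpl3* and Rpl13a.

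From 2 to 7 weeks few members changed. None was higher and 7 were lower, with 10 of 86 at an unadjusted p under 0.05, and DESeq2 called 0 and 6. Of all genes tested, 13.5% were higher and 14% lower. The median was -0.23 over the members and -0.03 over all genes, and with total counts -0.59 and -0.38, with 0 members higher and 37 lower. The count of falls was 16 without replicate 3 of 7 weeks, 4 without replicate 1 of 2 weeks, 4 without replicate 2 of 7 weeks, and 6 without the lowest libraries of E18.5 and 7 weeks. The core genes that fell were *Rpl3*, *Rpl13a*, *Rpl39* and *Rps10*, and the others were *Rps4l*, *Rpl39l* and Rpl36al.

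*Rpl39*, which lines the peptide exit tunnel, was at 182, 124, 116 and 99.1 CPM at E18.5, 110.0, 123, 86.2 and 108 CPM at 2 weeks and 40.1, 65.6, 77.4 and 77.2 CPM at 7 weeks. Each 7-week library lay below each 2-week library (-0.71 ± 0.23, adjusted p = 0.0312), and the call was lost when replicate 1, 2 or 4 of 2 weeks or replicate 1 or 2 of 7 weeks was left out. *Rpl13a*, whose introns carry small nucleolar RNAs, was listed at 8.61, 6.99, 6.73 and 6.26 CPM at E18.5, 3.79, 4.13, 3.67 and 3.91 CPM at 2 weeks and 2.15, 2.16, 3.06 and 2.36 CPM at 7 weeks. It was lower at each age than at the one before, without overlap (-0.88 ± 0.18, adjusted p = 0.000574 and then -0.67 ± 0.18, adjusted p = 0.0133). *Rps10* was at 2.06, 3.19, 2.496 and 1.88 CPM at E18.5, 2.30, 1.55, 1.46 and 1.67 CPM at 2 weeks and 1.14, 0.947, 0.965 and 0.923 CPM at 7 weeks, and its fall (-0.81 ± 0.24, adjusted p = 0.0207) was lost when replicate 1 of 2 weeks or replicate 2 or 4 of 7 weeks was left out. Levels of these genes are uncertain. Other annotated genes share bases with them on the same strand: 30.9% of the exonic bases of *Rpl13a*, 14.9% of *Rps10*, 41.1% of *Rpl24* and 11.1% of *Rpl36al*. The part of this overlap in the levels was not tested. How reads in shared bases were counted is not given in the sources used here.

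**Figure D3:**
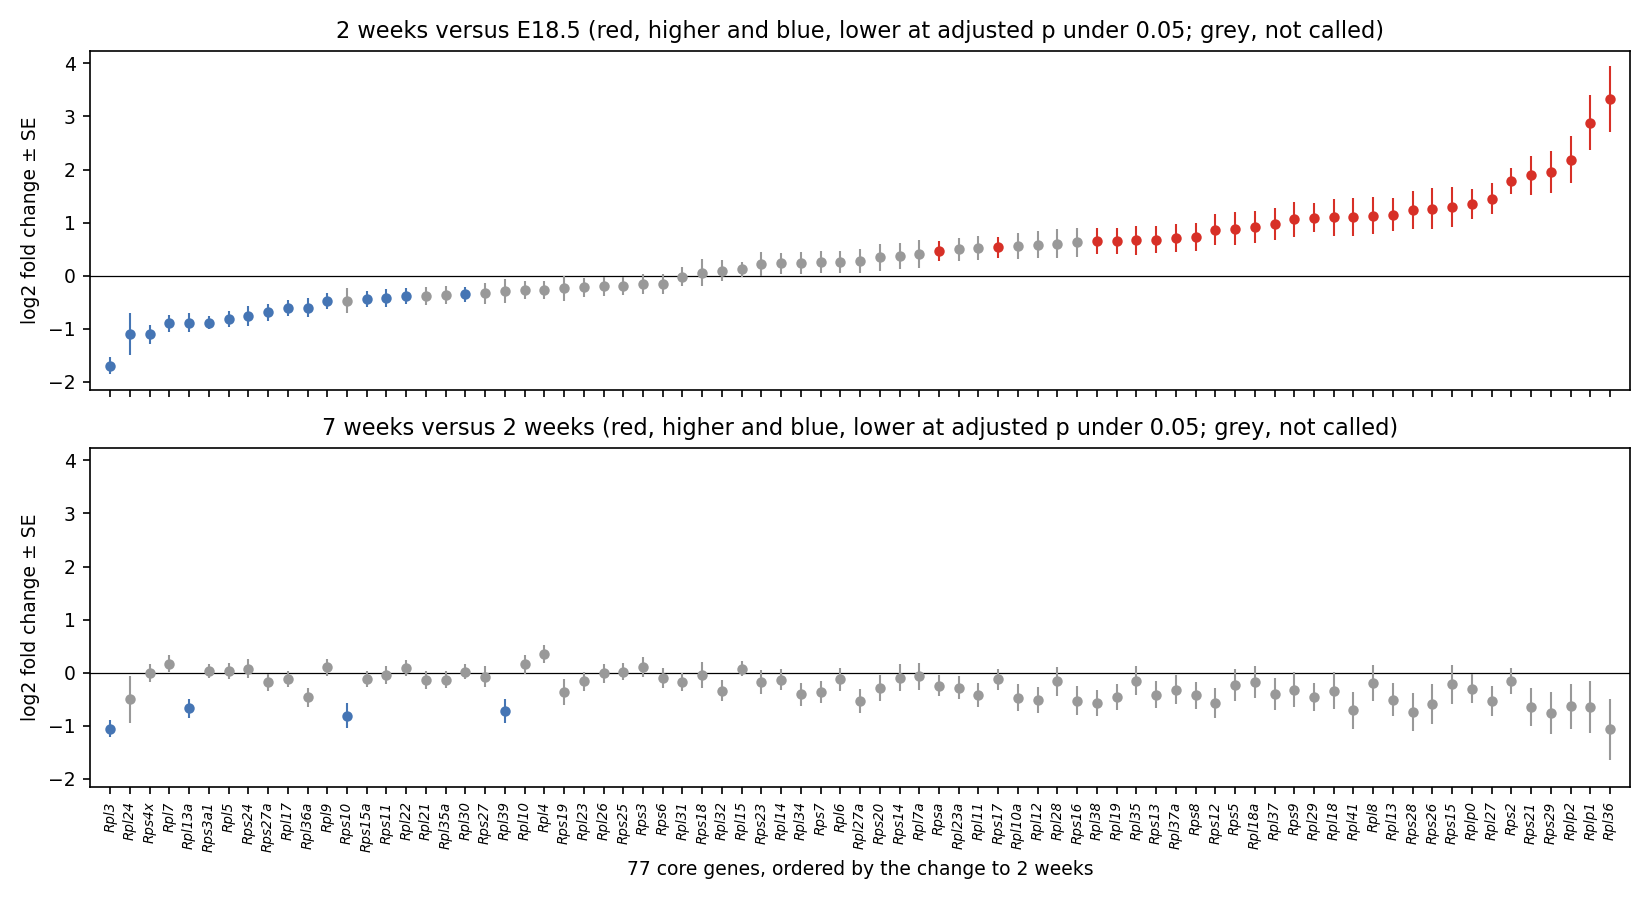
The plot of core gene changes gives the log2 fold change ± SE of each of the 77 core genes from E18.5 to 2 weeks and from 2 to 7 weeks (TMM scaling), in the order of the first, with genes called higher in red, called lower in blue and not called in grey. In the first interval values run from -1.69 for *Rpl3* to 3.32 for *Rpl36*, and in the second only *Rpl3*, *Rpl13a*, *Rps10* and *Rpl39* are called, all lower.

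Across the whole span, from E18.5 to 7 weeks, 14 members were higher and 24 lower of 86, beside 34.3% of all genes higher and 37.1% lower. The members' median was 0.07 and that of all genes -0.09. In the small subunit 4 were higher and 8 lower, in the large subunit 5 and 12, in the stalk 3 and 0, and among paralogues and copies 2 and 4. The shares of all genes are those with TMM scaling. With total counts 1 member was higher and 69 lower, with medians of -1.22 for members and -1.36 for all genes. With the length trend removed 5 were higher and 54 lower, with medians of -0.62 for members and -0.31 for all genes. The count of rises was 27 without replicate 2 of E18.5, 22 without replicate 1 of 7 weeks and 9 without replicate 3 of 7 weeks, and without the lowest library of both ages 18 were higher and 20 lower.

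The rises were led by *Rpl3l*, then *Rpl36* (2.26 ± 0.60, adjusted p = 0.00367), *Rplp1* (2.24 ± 0.51, adjusted p = 0.00127), *Rps2* (1.62 ± 0.25, adjusted p = 4.5e-05) and *Rplp2* (1.55 ± 0.43, adjusted p = 0.00537), and *Rplp0* was also higher (1.05 ± 0.28, adjusted p = 0.00374). All of these except *Rpl3l* lost the call with total counts, and *Rplp0* and *Rplp2* also lost it with the length trend removed. The falls were led by *Rpl39l* and *Rpl3*, followed by *Rpl24* (-1.61 ± 0.42, adjusted p = 0.00346), *Rpl13a* (-1.55 ± 0.18, adjusted p = 3.54e-06) and Rpl36al. Of the 24 falls 12 kept their call in all the other settings that could be fitted: *Rps27a*, *Rps3a1*, *Rps4x*, *Rpl39l*, *Rpl7*, *Rps27rt*, *Rps10*, *Rpl3*, *Rpl13a*, *Rpl36a*, *Rpl39* and Rpl24. Of the 14 rises only *Rpl3l* did.

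The change from 2 to 7 weeks was also set against that from E18.5 to 2 weeks in the same fit. The difference, later minus earlier log2 fold change, passed the test as positive for 4 members and as negative for 21, beside 16.8% and 21.6% of all genes, with a median difference of -0.55 over the members and 0.00 over all genes. It was negative for *Rplp1* (-3.53 ± 0.81, adjusted p = 0.00458), *Rpl36* (-4.39 ± 0.95, adjusted p = 0.00325) and *Rpl3l* (-5.59 ± 0.42, adjusted p = 1.02e-06). The 4 positive genes were *Rps4x* (1.10 ± 0.31, adjusted p = 0.014), *Rpl7* (1.07 ± 0.29, adjusted p = 0.0106), *Rps3a1* (0.91 ± 0.22, adjusted p = 0.00598) and *Rpl5* (0.86 ± 0.27, adjusted p = 0.023). All of these fell to 2 weeks and showed no further fall past the threshold. Other genes with that course, such as *Rps24* and *Rps27a*, did not pass this test. With total counts the counts turned to 18 positive and 9 negative, and with the length trend removed to 27 and 11. The median difference over all genes was then 0.58 and 0.27. Without replicate 2 of E18.5 there were 36 negative, without replicate 3 of 7 weeks 35, and without replicate 1, 2 or 4 of 2 weeks 13. The count of positive differences was 2 without replicate 3 or 4 of 2 weeks, and without the lowest libraries of E18.5 and 7 weeks there were 8 positive and 15 negative.

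To ask which core genes moved apart from the rest of the core, each library was scaled to the core genes themselves. The scaling places the middle of the core at no change, so values on both sides of it follow from the scaling. In this fit 49 of 77 core genes were off the common level at 2 weeks against E18.5, beside 59% of all genes tested in either direction. *Rplp1* (2.71 ± 0.40, adjusted p = 4.65e-05), *Rpl36* (3.16 ± 0.48, adjusted p = 6.75e-05), *Rplp2* (1.96 ± 0.33, adjusted p = 0.000141) and *Rplp0* (1.10 ± 0.22, adjusted p = 0.000664) stood above the core, while *Rpl3* (-2.04 ± 0.23, adjusted p = 4.3e-06), *Rps4x* (-1.48 ± 0.26, adjusted p = 0.000227) and *Rpl7* (-1.27 ± 0.26, adjusted p = 0.000738) stood below it. Between 2 and 7 weeks *Rpl3* alone of the core genes was off (-0.74 ± 0.22, adjusted p = 0.0346), beside 16.3% of all genes. That count was 2 without replicate 2 of E18.5 or replicate 3 of 7 weeks, and 0 without replicate 1, 2 or 3 of 2 weeks or replicate 2 or 4 of 7 weeks. Between E18.5 and 7 weeks 33 core genes were off, beside 61.6% of all genes.

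*Rpl3* and its paralogue *Rpl3l* moved in opposite directions. *Rpl3* was at 219, 250.3, 250.4 and 219 CPM at E18.5, 86.3, 83.1, 63.5 and 57.5 CPM at 2 weeks and 32.5, 32.6, 42.6 and 32.1 CPM at 7 weeks. It was lower at each age than at the one before, with no overlap (-1.69 ± 0.16, adjusted p = 1.58e-06 to 2 weeks, then -1.05 ± 0.16, adjusted p = 0.000495 to 7 weeks). *Rpl3l* was at 13.0, 16.1, 8.20 and 15.0 CPM at E18.5, 626, 603, 492 and 635 CPM at 2 weeks and 352, 475, 792 and 578 CPM at 7 weeks. It rose between E18.5 and 2 weeks in every library (5.49 ± 0.30, adjusted p = 1.13e-08) and did not pass the test afterwards (-0.10 ± 0.25, adjusted p = 0.798). Over the whole span *Rpl3* changed by -2.75 ± 0.17, adjusted p = 1.51e-08 and *Rpl3l* by 5.39 ± 0.30, adjusted p = 6.26e-09.

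Within a library the ratio of the 2 genes does not depend on scaling. The mean log2 ratio of *Rpl3l* to *Rpl3* counts was -4.21 ± 0.49 at E18.5, 3.03 ± 0.29 at 2 weeks and 3.92 ± 0.36 at 7 weeks (SD, n = 4). The ratio rose by 7.24 to 2 weeks (exact p = 0.0286 by two-sided permutation of 4 against 4 libraries, which can go no lower). It was 0.89 higher at 7 weeks than at 2 weeks (exact p = 0.0571), and 1.05 higher without replicate 1 of 7 weeks. Among 7 pairs and 3 comparisons, 21 tests in all, the smallest adjusted p was 0.0545, so no pair passed the threshold after adjustment. With the exact p bounded at 0.0286, the adjusted p depends on how many of the 21 tests reach that bound. It does not measure the size of a change. Per kilobase of coding sequence, *Rpl3l* made up 5.26% ± 1.45 of the pair at E18.5, 88.9% ± 1.83 at 2 weeks and 93.6% ± 1.55 at 7 weeks. Of the stretches of 100 bases of *Rpl3*, 79.1% also occur in other genes, against 0.833% for *Rpl3l*, so the level of *Rpl3* is the less certain.

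**Figure D4:**
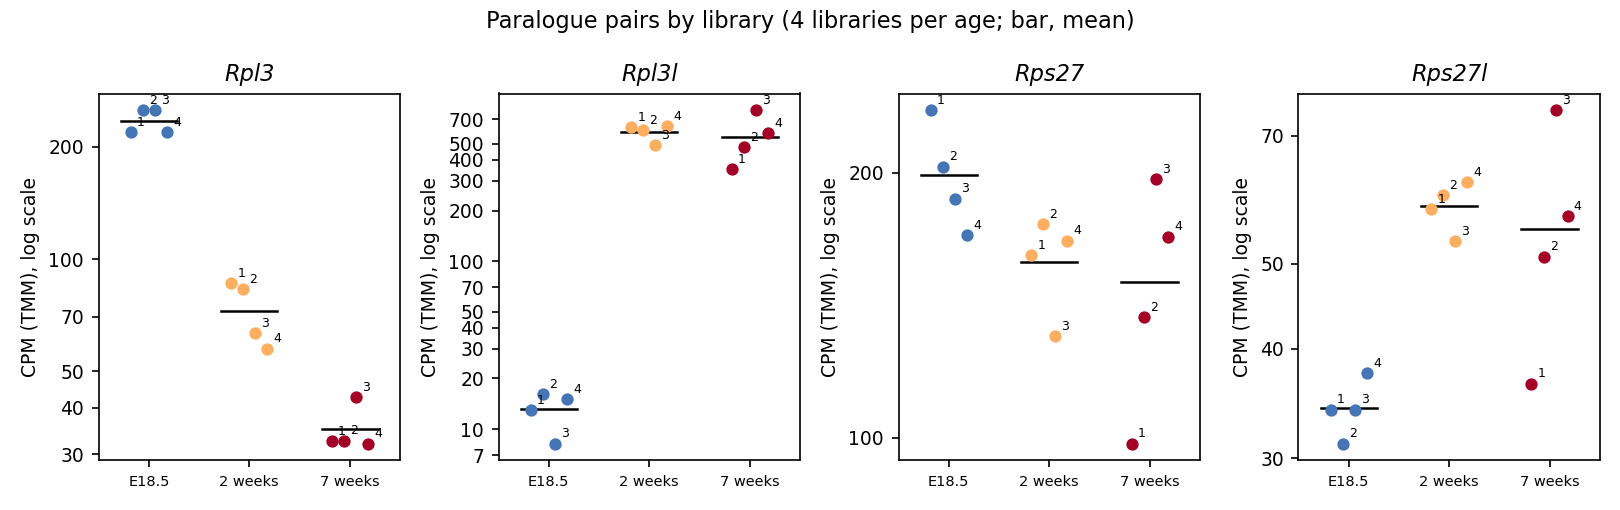
The plot of paralogue levels gives CPM (log axis) in each of the 12 libraries for *Rpl3* with *Rpl3l* and for *Rps27* with *Rps27l*, by age. *Rpl3* falls from 219 to 250 CPM at E18.5 to 32.1 to 42.6 CPM at 7 weeks, while *Rpl3l* rises from 8.20 to 16.1 CPM to 352 to 792 CPM.

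*Rps27l*, a paralogue of *Rps27* that responds to p53, was at 34.1, 31.2, 34.1 and 37.5 CPM at E18.5, 57.8, 59.9, 53.0 and 62.0 CPM at 2 weeks and 36.5, 51.0, 74.9 and 56.7 CPM at 7 weeks. Every 2-week library was above those of E18.5 (0.77 ± 0.18, adjusted p = 0.00184), but with total counts the value was -0.16 and with the length trend removed -0.15. *Rps27* was at 199 ± 27.9, 159 ± 19.5 and 150.4 ± 42.3 CPM and did not pass the test. The log2 ratio of *Rps27l* to *Rps27* rose by 1.09 between E18.5 and 2 weeks (exact p = 0.0286, adjusted p = 0.0545) and stood at -0.02 between 2 and 7 weeks (exact p = 0.857). Per coding kilobase the share of *Rps27l* was 14.9% ± 2.46, 27.0% ± 1.44 and 26.7% ± 1.11 at the 3 ages.

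*Rpl7l1*, a paralogue of *Rpl7* that acts in ribosome assembly, was at 46.4 to 61.8 CPM over all 12 libraries (0.00 ± 0.13, adjusted p = 0.98 to 2 weeks with TMM scaling, but -0.92 with total counts and -0.73 with the length trend removed). The log2 ratio of *Rpl7l1* to *Rpl7* rose by 0.91 to 2 weeks (exact p = 0.0286). *Rpl22l1* fell from 169, 100.3, 96.1 and 90.1 CPM to 65.8, 75.2, 66.9 and 70.3 CPM (-0.71 ± 0.18, adjusted p = 0.0032), with replicate 1 of E18.5 well above the others. *Rpl22* itself fell (-0.38 ± 0.15, adjusted p = 0.0396), a call kept in 15 of 25 other settings, and their ratio changed by -0.28 (exact p = 0.257), with *Rpl22l1* at 44.0% ± 7.50, 39.3% ± 2.03 and 38.4% ± 4.05 of the pair per coding kilobase.

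The remaining copies were rare. *Rpl39l*, a paralogue best known from the testis, had 184, 224, 413 and 304 counts at E18.5, 26, 13, 25 and 22 at 2 weeks and 3, 8, 7 and 4 at 7 weeks. It fell at each step (-2.37 ± 0.34, adjusted p = 4.41e-05, then -1.69 ± 0.41, adjusted p = 0.00818) without overlap between ages, by -4.06 ± 0.40, adjusted p = 7.28e-07 over the whole span. *Rps4l* was at 0.499, 2.37, 1.48 and 1.07 CPM at E18.5, 2.70, 2.63, 2.23 and 3.21 CPM at 2 weeks and 0.281, 0.745, 1.32 and 0.709 CPM at 7 weeks. It was not called from E18.5 to 2 weeks (0.99 ± 0.44, adjusted p = 0.0589) and fell afterwards (-1.81 ± 0.46, adjusted p = 0.0102), when its libraries did not overlap. *Rps27rt*, a copy with 89.5% of its stretches of 100 bases also in other genes, fell to 2 weeks (-1.18 ± 0.35, adjusted p = 0.00895). *Rpl35rt* did not pass the test (0.10 ± 0.36, adjusted p = 0.811). *Rpl36al* had 12, 21, 12 and 18 counts at E18.5, 5, 16, 8 and 4 at 2 weeks and 1, 2, 3 and 2 at 7 weeks. It passed the test at 7 weeks against both earlier ages (adjusted p = 0.033 against 2 weeks and 0.0242 against E18.5), and DESeq2 did not call it. Against 2 weeks the call was kept in 12 of 22 other settings and was lost without replicate 1, 2 or 3 of 2 weeks, without replicate 1, 2 or 4 of 7 weeks, without a filter and with a replicate block. Against E18.5 it was kept in 15 of 22. Not tested for low counts were *Rps23rg1* with 0 to 14 counts, *Rpl27rt* with 0 to 2, and *Rpl10l*, the paralogue of *Rpl10*, with 0 in every library.

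The core genes that rose and those that fell between E18.5 and 2 weeks differed in the base composition of their coding sequence. Over the 77 core genes the log2 fold change to 2 weeks had a Spearman correlation of 0.73 with coding GC content, against 0.36 over all 15225 tested genes with a coding sequence. From 2 to 7 weeks the correlation was -0.48 (all genes -0.28), and over the whole span 0.72 (all genes 0.18). With GC content of the whole transcript the core genes had weaker correlations, 0.51 to 2 weeks, -0.42 from 2 to 7 weeks and 0.47 over the whole span. These are descriptions across genes of the same libraries, which are not independent. Of the 39 core genes at or above the median coding GC content of 52.6%, 25 rose and 1 fell to 2 weeks (median 0.89), while of the 38 below it 4 rose and 15 fell (median -0.28), where 31.5% of all genes rose and 34.2% fell. With total counts the GC-rich genes had 6 higher and 7 lower (median -0.04) and the others 0 and 33 (-1.20), and with the length trend removed 11 and 7 (0.27) and 0 and 31 (-0.98). The median of all genes was -1.02 with total counts and -0.32 with the length trend removed. *Rpl36* is the richest in GC at 61.3%, *Rps4x* has 47.6% and *Rps27a* 45.9%.

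GC content also went with the spread among libraries of one age. The ratio of the highest to the lowest library had a Spearman correlation with coding GC content of 0.76 at E18.5, -0.03 at 2 weeks and 0.60 at 7 weeks over the core genes, and of 0.29, 0.15 and 0.10 over 8651 tested genes. With GC content of the whole transcript the core genes had 0.50, 0.05 and 0.45 at the same ages. The genes that differed most between E18.5 libraries were those that rose most to 2 weeks (Spearman 0.82, n = 77, with the E18.5 libraries in both measures). In replicate 1 of E18.5 the median deviation from the mean of all libraries was -1.17 log2 units for the GC-rich core genes and 0.17 for the others, and in replicate 2 of E18.5 it was 0.21 and 0.30. With the coding GC trend of all genes removed, 19 members were higher and 10 lower at 2 weeks, and 30 of the core genes rather than 49 were off the core level. The cause of this relation was not tested.

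**Figure D5:**
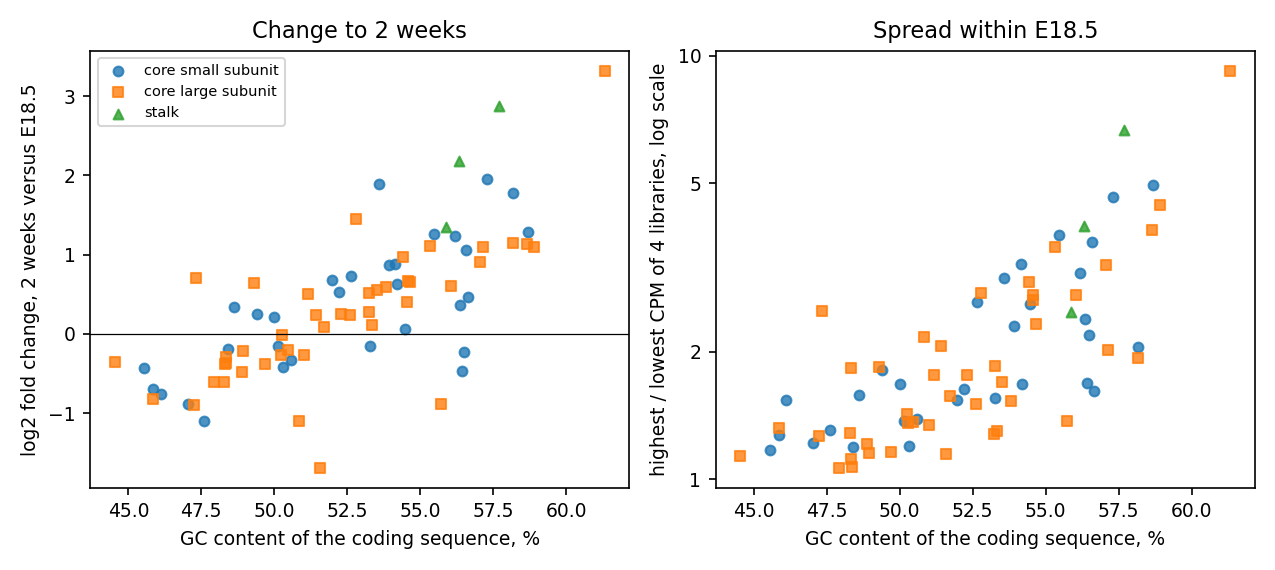
The plots against coding GC content (percent, x axis) have one point for each of the 77 core genes, with the log2 fold change to 2 weeks on the y axis of the left one and, on the right, the ratio of the highest to the lowest of the 4 E18.5 libraries (log axis). Both values increase with GC content (Spearman 0.73 and 0.76), and *Rpl36*, at 61.3%, is the highest in both.

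Levels between genes were compared per kilobase of coding sequence. The counts also take in the untranslated parts, so genes with a short coding part stand higher on this scale. The ranking depends on this divisor. The highest core genes at E18.5 were *Rps24* (1550.1 CPM per kb), *Rps4x* (1124) and *Rpl7* (1023). At 2 weeks *Rpl41*, the shortest protein of the ribosome, was highest (1348 CPM per kb), and at 7 weeks *Rps24* was again (965 CPM per kb). The lowest at E18.5 were *Rpl24* (0.945 CPM per kb), *Rps10* (4.83), *Rpl13a* (11.7) and *Rpl29* (14.1), and these were also the lowest at the later ages. The levels of these 4 genes are uncertain, and the part of overlapping or copied sequence in them was not tested. The order of the 77 genes was closest between 2 and 7 weeks (Spearman 0.97) and less so between E18.5 and 2 weeks (0.71) or 7 weeks (0.80).

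Fau, which encodes a ribosomal protein fused to a ubiquitin-like protein and falls outside the naming rule, rose to 2 weeks (1.59 ± 0.40, adjusted p = 0.00308), a call lost with total counts. The shares of all genes called higher and lower with TMM scaling, for the lists that follow, were 31.5% and 34.2% to 2 weeks, 13.5% and 14% from 2 to 7 weeks, and 34.3% and 37.1% over the whole span. With total counts the median log2 fold change of all genes was -1.02, -0.38 and -1.36 in the same order. Of 50 genes of ribosome biogenesis, 17 rose and 9 fell to 2 weeks, 8 rose and 0 fell from 2 to 7 weeks, and 27 rose and 7 fell over the whole span. The nucleolar proteins Npm1 (-1.68 ± 0.17) and Nop58 (-1.52 ± 0.18) fell to 2 weeks, while Taf1c, a factor of RNA polymerase I (2.34 ± 0.38), and Rrp12, an export factor of pre-ribosomes (1.89 ± 0.22), rose. After 2 weeks Dkc1, the pseudouridine synthase of small nucleolar particles (0.58 ± 0.14), and Utp20 of the small-subunit processome (0.55 ± 0.13) were among the rises. With total counts the biogenesis list had 2 higher (Taf1c and Rrp12) and 35 lower to 2 weeks, 0 and 6 from 2 to 7 weeks, so that the calls on Dkc1 and Utp20 were lost, and 2 and 39 over the whole span.

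Of 16 other genes whose mRNAs carry TOP tracts, 4 rose and 7 fell to 2 weeks, 3 rose and 2 fell from 2 to 7 weeks, and 7 rose and 5 fell over the whole span. The elongation factor gene Eef1a1 fell at both steps (-2.19 ± 0.21, then -0.95 ± 0.20), Nap1l1, a histone chaperone (-1.60 ± 0.18), and Pabpc1, the poly(A)-binding protein (-1.57 ± 0.15), fell to 2 weeks, and Eef1d (1.30 ± 0.23) and Eef2 (1.23 ± 0.31) rose. Among 13 regulators of TOP mRNAs and of ribosome production, 5 rose and 2 fell to 2 weeks, 4 rose and 1 fell from 2 to 7 weeks, and 8 rose and 2 fell over the whole span. The S6 kinase genes went apart to 2 weeks, with *Rps6kb1* at -0.66 ± 0.17 and *Rps6kb2* at 1.13 ± 0.23, and Larp4, which binds poly(A) tails, fell (-0.997 ± 0.24). From 2 to 7 weeks Myc, a driver of ribosome biogenesis, fell (-1.51 ± 0.31), while Eif4ebp2 (1.06 ± 0.15) and Tsc1 (1.04 ± 0.16), which hold back cap-dependent translation and mTORC1, rose. Over the whole span Larp1, which binds TOP tracts, was higher (1.198 ± 0.15, adjusted p = 6.11e-06), and so were Tsc2 (1.31 ± 0.19) and Rptor (1.30 ± 0.21). With total counts, the TOP list had 0 higher and 12 lower to 2 weeks, 1 and 3 from 2 to 7 weeks and 0 and 13 over the whole span, and the regulators 0 and 8, 3 and 2, and 0 and 6. The rises of Eef1d, Eef2 and *Rps6kb2* to 2 weeks and of Larp1, Tsc2 and Rptor over the whole span were thus lost, whereas Eif4ebp2 and Tsc1 kept theirs from 2 to 7 weeks.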

How the data were processed

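Tibialis anterior RNA of 12 libraries (poly(A) mRNA, TruSeq Stranded) was sequenced by the authors. The deposited values are raw counts per gene. Per the labels, bcl2fastq 2.17.1.14, cutadapt 1.10, STAR 2.5.3a and HTSeq 0.6.1p1 were used with mm10, whereas the methods of the study name GRCm39, and the strand setting of the counting is not given in the sources used here. Members and lists were chosen with earlier results of these data known. Counts were fitted over all 12 libraries with edgeR 4.0.16 (quasi-likelihood, TMM, filterByExpr) in R 4.3.3, with age as the only term and Benjamini-Hochberg adjustment over 19276 genes at 0.05. Fold changes carry the SE, levels the SD. A count of 0.5 was added before paralogue ratios, which were compared by exact permutation tests (scipy 1.17.1). The 5 largest rises and 5 largest falls per comparison and the paralogue pairs were to be named, and a further gene that is no member is not reported here. Totals of 63018968 to 123449246 counts set the precision. Replicate pairs differed beyond sampling noise (chi-square per degree of freedom 32.6 to 611.6). The fit was also run on simulated counts in which only a small set of genes was given a fold change. That run cannot speak for TMM scaling where many genes change. Alternatives were DESeq2 1.42.0, other scalings and filters, trends with GC content and length removed, a replicate block and leaving out libraries. The joint GC and length trend, the coding GC trend and the joint omission of the lowest libraries were chosen after seeing the data.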

Additional observations from a re-analysis of the deposited data

Results flagged for a closer look

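Of 69 groups of 4 libraries tested for one far from the others (Dixon's criterion), 2 held such a library, and chance alone would give about 1 in 20, or 3.45. *Rpl22l1* was at 168.8 CPM in replicate 1 of E18.5 and at 90.14 to 100.3 CPM in the other 3 libraries of that age. *Rpl3* was at 42.63 CPM in replicate 3 of 7 weeks and at 32.06 to 32.63 CPM in the others.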

How the results depend on the processing

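Counts of members called varied with the treatment of composition, and so did the median of all genes. From E18.5 to 2 weeks, 31 members were higher, and 7 with total counts, 18 with the GC trend removed, 12 with the length trend, 14 with both trends and 19 with the coding GC trend removed. The 19 lower became 44 with total counts, 43 with the length trend, 35 with both and 10 with the coding GC trend removed. From 2 to 7 weeks, 1 was higher with the length trend removed, and 37 were lower with total counts. Over the whole span, 14 higher became 1 with total counts, 9 without a filter, 9 with the GC trend removed, 5 with the length trend and 5 with both, and 24 lower became 69, with the length trend 54 and with both 53. For the later minus the earlier change, 4 positive became 18 with total counts, 8 with DESeq2, 27 with the length trend, 24 with both trends, 0 with the coding GC trend removed and 8 without the lowest libraries, and 21 negative became 9 with total counts, 13 with the GC trend, 11 with the length trend, 11 with both and 13 with the coding GC trend removed. Of core genes off the core level, 49 became 30 with the coding GC trend removed.

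With 1 library left out at a time, counts of higher and lower members ran from 22 to 38 and 14 to 20 to 2 weeks, 0 to 0 and 4 to 16 after it, and 9 to 27 and 18 to 30 over the whole span, those of positive and negative differences from 2 to 6 and 13 to 36, those off the core level from 36 to 50, 0 to 2 and 24 to 42, and the change in the *Rpl3l* to *Rpl3* ratio from 7.00 to 7.36, 0.791 to 1.05 and 7.89 to 8.29. Correlations of same-numbered libraries across ages were -0.27 to 0.46, with 5 of 12 over 0.1. Those of differently numbered libraries were -0.45 to 0.34, and 6 of 12 libraries were closest to their own number. Whether replicate numbers mark pairs or batches was not tested. With a replicate block, 35 members were higher and 16 lower to 2 weeks, 0 and 5 to 7 weeks, 16 and 22 over the whole span, and core genes off the core level numbered 39, 0 (against 1) and 28. Log2 fold changes to 2 weeks turned for *Rpl7l1* (0.00) to -0.92 with total counts, -0.73 with the length trend removed and -0.51 with both trends, and for *Rps27l* (0.77) to -0.16 and -0.15 with total counts and the length trend removed. For *Rps27l* over the whole span (0.68) they turned to -0.60 and -0.19. Of 55 results on single genes, 24 changed their call or direction under some alternative. The causes were not tested.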
